A study of Mus musculus with 12 samples.

Results

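The cytosolic ribosomal protein genes were followed in spinal cord RNA of mice in which the gene Tardbp was deleted with Gfap-Cre. Members were taken by name (Rpl or Rps with a number, plus Rpsa, Rplp0, Rplp1 and Rplp2, without the Rps6k kinases and without pseudogenes whose symbol holds -ps) and by a mean of at least 10 TPM over all mice, with 1 row for each symbol. TPM is the abundance of a transcript relative to all others of its library, corrected for transcript length. Of the 36121 genes of the deposited table, 89 carried such a name and 81 passed the limit, of which 33 belong to the small 40S subunit and 48 to the large 60S subunit. The 81 members included Rpl12, the lowest at 20.9 TPM, and the highest gene left out was Rpl3l, a muscle paralog of Rpl3, at 0.978 TPM. Rps4l, a member by its name, is annotated as a transcribed processed pseudogene, while each of the other 80 members has an annotated coding sequence.

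The mice were of strain C57BL6, 3 months old, and formed 3 groups of 4, each with 2 males and 2 females. Control mice had the genotype Tardbp-fl/fl, both alleles floxed with no Cre named. The cHet mice were Gfap-Cre; Tardbp-fl/+, with a single floxed allele, and the cKO mice were Gfap-Cre; Tardbp-fl/fl. Gfap encodes an astrocyte filament, the titles call the deletion specific to astrocytes, and the labels give neither the floxed exons nor the Cre line. RNA came from the whole tissue, so fewer cells of a type and less RNA per cell cannot be told apart, nor can the cell type in which a ribosomal protein mRNA differed. No group had Cre without a floxed allele, so that Cre and the loss of Tardbp cannot be told apart in a comparison with control.

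Cytosolic ribosomes are built in the nucleolus from ribosomal RNA and 1 copy each of most ribosomal proteins, with the stalk proteins of the 60S subunit in more than a single copy. The mRNAs of these proteins are short, abundant in every cell type, and begin with a run of pyrimidines (a terminal oligopyrimidine, or TOP, motif) through which the kinase mTORC1 and the binding protein Larp1 control their translation together. TDP-43, the RNA-binding protein encoded by Tardbp, has been reported in cultured neurons to bind ribosomal protein mRNAs and to accompany them into axons.

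A library's normalized TPM came to 954895 to 978621 over the controls, 983452 to 1023990.0 over cHet mice and 1017860.0 to 1048380.0 over cKO mice, so the deposited scaling did not set equal totals. Read depth is unknown, since TPM does not keep it. Tardbp, which cells without Cre also express, was measured at 181, 167, 169 and 166 TPM in control mice, 178, 173, 172 and 158 TPM in cHet mice and 150.3, 150.2, 151 and 140.5 TPM in cKO mice. All 4 cKO mice lay below every other mouse, with a log2 difference from control of -0.20 ± 0.04 (SE; limma adjusted p = 0.0113), and cHet overlapped with control. Replicate numbers below follow the order of the samples and pair nothing.

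The region around the annotated start is shown for 8 members that carry the results below, since a TOP motif stands at the start of an mRNA. The capitals below need not begin at the start, and in Rps2 and Rpl36a they lie after it, so they are not taken as TOP motifs. Each line gives 35 bases before the annotated start and 25 after it, from RefSeq on GRCm38, with the longest unbroken run of C or T among the printed bases from 20 before the start onward in capitals. The first 3 are among the members with the largest differences between cHet and control, Rpl36a had the smallest p between cKO and cHet, and the last 4 rose in cKO against control.
Rpl38, chr11:114668545-114668604, plus strand: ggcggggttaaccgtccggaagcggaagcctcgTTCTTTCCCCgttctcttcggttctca
Rps27, chr3:90213624-90213683, minus strand: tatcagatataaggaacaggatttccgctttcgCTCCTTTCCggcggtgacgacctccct
Rplp2, chr7:141447616-141447675, plus strand: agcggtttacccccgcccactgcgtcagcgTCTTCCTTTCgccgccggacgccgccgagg
Rpl36a, chrX:134585619-134585678, plus strand: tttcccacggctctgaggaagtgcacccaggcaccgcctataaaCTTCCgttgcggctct
Rpl18, chr7:45718036-45718095, plus strand: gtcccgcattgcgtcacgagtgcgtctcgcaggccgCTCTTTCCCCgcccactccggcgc
Rps10, chr17:27635220-27635279, minus strand: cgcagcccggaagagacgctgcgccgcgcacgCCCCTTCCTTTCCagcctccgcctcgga
Rps2, chr17:24720028-24720087, plus strand: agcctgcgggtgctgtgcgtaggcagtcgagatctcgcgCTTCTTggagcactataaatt
Rpl15, chr14:18270962-18271021, minus strand: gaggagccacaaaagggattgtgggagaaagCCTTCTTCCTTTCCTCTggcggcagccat

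RefSeq promoters were matched for 60 of the 81 members. A run of at least 8 C or T between 20 bases before and 50 bases after the start stood in 47 of these 60 (78.3%). It stood in 28.5% of all 27025 genes with a RefSeq promoter, whether or not they were measured here. The run was 17 bases long in Rpl15, 13 in Rps10 and 10 in Rpl38, Rplp2 and Rpl18. In Rps2 and Rpl36a the capitals mark 6 and 5 bases, and the longest runs in the whole window, 10 and 13 bases, reach beyond the printed stretch. The core CCGGAAG, read by ETS factors, or its reverse complement was in the 300-base promoter of 25 of 60 members (41.7%) and of 9.93% of those 27025 genes. Among the 8 shown, Rpl38, Rplp2, Rps10, Rps2 and Rpl15 held it.

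The members spanned a 125-fold range of mean TPM, from 20.9 for Rpl12 to 2618 for Rps29, with a median of 484, and 75 of 81 were at 100 TPM or more. The 5 most abundant per length were Rps29 at 2618, Rps21 at 2329.6, Rpl38 at 2043, Rps27 at 2019.6 and Rplp1, a protein of the 60S stalk, at 1929 TPM. Median levels were 561 TPM over the 40S members and 450.3 TPM over the 60S members. Within a group of mice the coefficient of variation of a member had a median of 3.17% in control, 5.64% in cHet and 3.52% in cKO.

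Added together, the 81 members held 48120.5, 47588, 49832 and 49185 TPM in control replicates 1 to 4. The sums were 53809, 58391, 52146 and 51122 TPM in cHet replicates 1 to 4 and 50828, 53140.1, 50448 and 53036 TPM in cKO replicates 1 to 4. Every mouse with Cre lay above every control mouse, and cHet replicate 2 was the highest of all 12. The mean sum was 48682 ± 1014 TPM over the controls, 53867 ± 3213 TPM over cHet and 51863 ± 1424 TPM over cKO mice (SD, n = 4). The mean was 10.7% higher in cHet than in control and 6.53% higher in cKO, but as a share of each library's total the cKO mean was 0.142% lower than control.

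As a percent of each library's sum, the share of the members was 5.03 ± 0.117% for control, 5.37 ± 0.265% for cHet and 5.03 ± 0.104% for cKO mice (SD, n = 4). On that scale the cHet mean was 6.72% above the control mean, and control overlapped with both groups. Genes of the mitochondrial genome held 17.3 ± 1.08% of the total for control mice, 17.2 ± 0.886% for cHet mice and 19.6 ± 0.689% for cKO mice. Their part in the result was not tested, beyond the scaling without them that is given with the comparisons. The 40S members made up 44.8 to 45.8% of the members' sum in control, 45.2 to 46% in cHet and 44.5 to 45% in cKO.

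**Figure D1:**
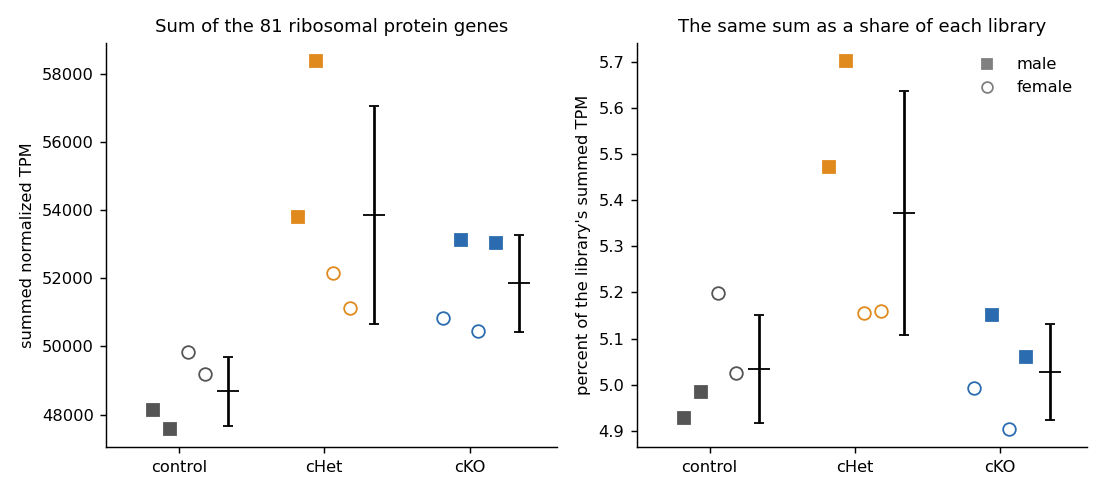
Summed normalized TPM of the 81 members in each of 12 mice (left) and the same sum as a percent of each library's summed TPM (right), with squares for males, open circles for females and bars for the mean ± SD of 4 mice. The axes do not start at 0. The 8 mice with Cre sit above the 4 controls on the left, while on the right the cKO mice overlap with the controls.

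Gene by gene, a control mouse had between 5 and 17 of the 81 members above their own median over 12 mice, a cHet mouse between 36 and 79, and a cKO mouse between 33 and 75. The count of 79 belonged to cHet replicate 2, whose median member stood 0.22 above the control mean on the log2 scale, against 0.06 to 0.11 in the other 3 cHet mice. The median member stood 0.05 to 0.12 above the control mean in the 4 cKO mice and -0.03 to 0.03 from it in the controls.

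**Figure D2:**
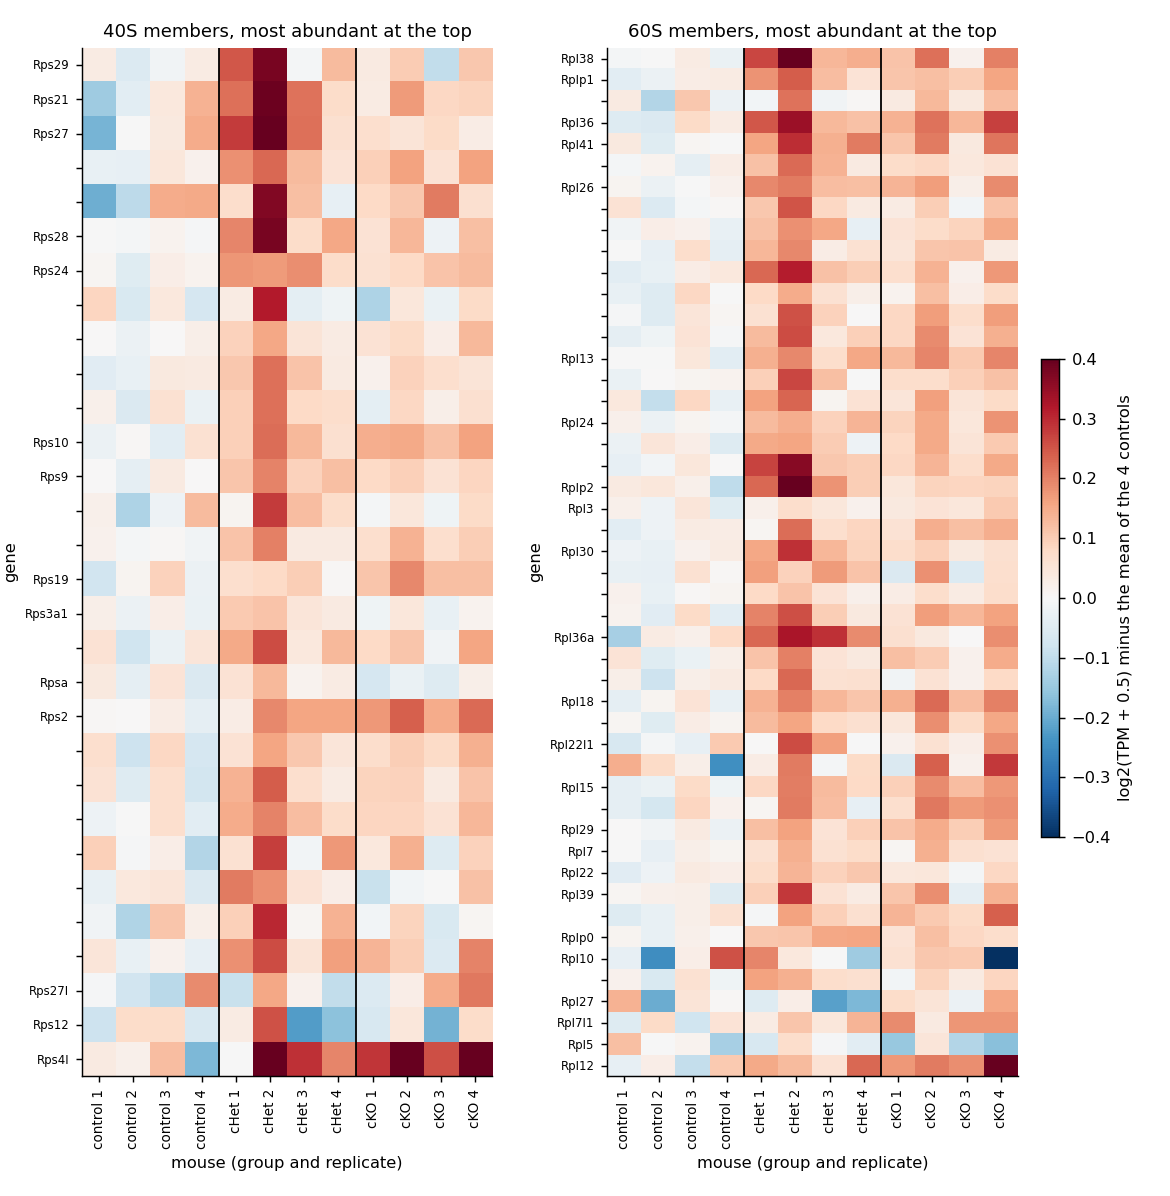
Each row is one of 78 members, with the names of those described in the text, and each column a mouse, and the colour is log2(TPM + 0.5) minus the mean of the 4 controls, for 40S members (left) and 60S members (right) ordered by abundance. The scale is limited to 0.4 in either direction. The column of cHet replicate 2 is the reddest, with 79 of 81 members above their own median, and single genes such as Rpl10 in cKO replicate 4 go against their column. Near-identical copies, which are not drawn here, hold 58.9% of the summed TPM of Rpl10 and its copies.

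The comparison of cKO with control asks what changed where both floxed alleles met Gfap-Cre. Ribosomal protein genes were slightly higher in cKO, by a median log2 difference of 0.09 or 6.34%, against a median of 0.01 over the 15259 genes tested, but with libraries set to equal totals that median turned to -0.00. The genes that rose belonged to both subunits, among them Rps2, Rps10 and Rps19 of the 40S subunit and Rpl12, Rpl13, Rpl15, Rpl18, Rpl24, Rpl26, Rpl29 and Rpl36 of the 60S subunit. In all, 13 of 81 members (16.0%) passed an adjusted p under 0.05 in limma, fitted over all genes tested, and none was called lower. Over all genes tested, 878 (5.75%) were called higher and 496 (3.25%) lower. With equal totals the split over all genes was 352 higher of 2018 called.

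A positive difference was seen in 76 of 81 members, against 54.2% of all genes, and an unadjusted p under 0.05 with a positive difference in 36 members, against 13.9% of all genes. In 34 members all 4 cKO mice lay above all 4 controls, as in 10.5% of all genes. Other short and abundant genes were also mostly higher, at limits of 1000 coding bases and 100 TPM chosen after values were seen. Of 738 such other coding genes, 83.5% had a positive difference and 26.3% were called higher. Of the 73 members of that length and level the shares were 95.9% and 16.4%. By subunit, 5 of 33 members of the 40S and 8 of 48 of the 60S subunit were called, with medians of 0.08 and 0.10 on the log2 scale. The lowest differences were -0.10 for Rpl5, which binds the 5S RNA, -0.03 for Rps12 and -0.03 for Rpl10, none of them called. For these genes, near-identical copies in the genome, described below, held more TPM than the named gene. With the copies added the differences were 0.02, 0.13 and 0.02, and Rps12 was called higher (limma adjusted p = 0.0408).

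Scaling and single mice decided much of this count. It was 2 with equal totals (Rps2 higher and Rpsa lower), 1 with equal totals over genes that are not members (Rpsa lower) and 3 with equal totals that leave out mitochondrially encoded genes. Over all genes, calls under these scalings numbered 2018, 2009 and 1295 of 15263, in place of 1374. The members' count was 8 with a rescaling by the median of ratios, 5 with no filter on low values and 5 when the spread was moderated without a trend. Calls over all genes there were 1279 of 15257, 1049 of 26723 and 1162 of 15259. Leaving out control replicate 1, 2, 3 or 4 gave 6, 4, 8 and 6 member calls, leaving out cKO replicate 2 or 4 gave 4 each, and leaving out cHet replicate 2, which enters through the shared spread, gave 20. Over all genes these fits called 1038, 907, 972 and 985 for the controls, and 814 and 890 for cKO replicates 2 and 4. Without cHet replicate 2 the calls over all genes numbered 1410. The 13 genes called kept a positive difference with equal totals, with a median of 0.05 in place of 0.15, though Rps2 alone stayed called. Over the settings that keep all mice, the members' median lay between 0.07 and 0.09 above that of all genes.

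Of the 40S members, Rps2, which lines the channel where mRNA enters (chromosome 17, 24718116 to 24721929, plus strand), was measured at 374, 373, 379.9 and 363 TPM in control mice, 380.5, 426, 416 and 415 TPM in cHet mice and 420.0, 440.1, 413 and 436 TPM in cKO mice. All 4 cKO mice lay above all 4 controls, and cHet replicate 1 lay just above the highest control. Rps2 rose by 14.7%, a log2 difference of 0.20 ± 0.04 (SE; limma adjusted p = 0.0056), the smallest p of any member, and was called in 24 of 25 alternatives. Rps10, a protein of the 40S head that is ubiquitinated on stalled ribosomes, was measured at 613, 625, 605 and 649 TPM in control mice, 666, 728, 681 and 651 TPM in cHet mice and 689, 692, 675 and 696 TPM in cKO mice. Its cKO mice again did not overlap with control, and its log2 difference was 0.14 ± 0.04 (SE; adjusted p = 0.0248).

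Rps19, whose loss of a copy causes Diamond-Blackfan anaemia in people, rose from 477 ± 23.7 to 524 ± 13.9 TPM (SD, n = 4), with a limma adjusted p of 0.0387.

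Of the 60S members, Rpl18 (chromosome 7, 45715457 to 45720836, plus strand) was measured at 352, 364, 375 and 354 TPM in control mice, 398, 415, 397 and 390.3 TPM in cHet mice and 399, 422, 393 and 415 TPM in cKO mice. All cKO mice and all cHet mice lay above all controls. Its log2 difference between cKO and control was 0.17 ± 0.03 (SE; adjusted p = 0.00615). Rpl13 (chromosome 8, 123102350 to 123105244, plus strand) was measured at 603, 603, 623 and 586 TPM in control mice, 666, 690.0, 634 and 672 TPM in cHet mice and 661, 691, 649 and 691 TPM in cKO mice. Again neither Cre group overlapped with control, and the log2 difference of cKO was 0.16 ± 0.03 (SE; adjusted p = 0.0119).

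Rpl29, also known as a heparin-binding protein (chromosome 9, 106429454 to 106431568, plus strand), was measured at 320.1, 317, 328 and 315 TPM in control mice, 348, 358, 332 and 342 TPM in cHet mice and 346, 354, 343 and 359.9 TPM in cKO mice. The controls were the 4 lowest mice, and the log2 difference was 0.13 ± 0.03 (SE; adjusted p = 0.0133). Rpl15, mutated in some patients with Diamond-Blackfan anaemia, was measured at 328, 330.2, 355 and 332 TPM in control mice, 356, 388, 367 and 356 TPM in cHet mice and 359, 383, 366 and 379 TPM in cKO mice. Control replicate 3 stood apart from its group and lay just below the lowest cHet and cKO mice. The log2 difference of Rpl15 was 0.15 ± 0.04 (SE; adjusted p = 0.0283).

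The other 60S calls were close to the threshold. Rpl24, which joins the subunit late and contacts the 40S subunit, rose from 522 ± 7.43 to 566 ± 23.5 TPM (SD, n = 4; limma adjusted p = 0.0332). Rpl26, reported to bind the mRNA of p53, rose from 892 ± 10.8 to 976 ± 48.8 TPM (limma adjusted p = 0.0456). Rpl36 rose from 1178 ± 53.5 to 1344 ± 62.3 TPM (limma adjusted p = 0.0449). Calls were kept least often by Rpl26, in 9 of 25 alternatives, and by Rps19 and Rpl36, in 11 of 25 each, while Rpl13 and Rpl18 kept theirs in 23 and Rpl29 in 22.

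Rpl12, at the base of the stalk, rose from 19 ± 1.15 to 22.7 ± 2.06 TPM with a log2 difference of 0.25 ± 0.07 (SE; adjusted p = 0.0349), and cKO replicate 4 was the highest mouse. This row holds a small part of the RNA that matches the gene, as given with the copies below, and with the copies added Rpl12 was not called (adjusted p = 0.199). Rps4l had the largest difference of all members, 0.36 ± 0.10 (SE), with 40.4, 39.97, 43 and 34.7 TPM in control mice, 39.4, 58.5, 48.3 and 45.2 TPM in cHet mice and 48.1, 53.1, 47.3 and 54.2 TPM in cKO mice. Its cKO mice lay above all controls, but the adjusted p was 0.0543.

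In the authors' deposited table for cKO against control, 20 members had a likelihood ratio q-value under 0.05, all with a positive effect, against 6.5% of the 17916 genes of that table with a positive effect at that q. Those 20 included 11 of the 13 members called by limma, which is 84.6% of the limma calls and 55% of the authors' calls. Rps2 had the smallest q-value of the members in the authors' deposited table, 0.00114, followed by Rpl13 at 0.00497 and Rps10 at 0.00767. Rps4l, not called by limma, came next at 0.00794. Rpl12 and Rpl36, called by limma, were above the threshold at 0.105 and 0.0617. The Wald test of the authors' deposited table put 28 members below a q of 0.05, also all higher, against 6.99% of the genes of that table.

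The comparison of cHet with control asks the same of mice with 1 floxed allele. Ribosomal protein genes were higher in cHet by a median log2 difference of 0.12 or 8.70%, against 0.01 over all genes, and the median stayed positive under every alternative run, between 0.07 and 0.14. No member and no other gene passed an adjusted p under 0.05 in limma (0 of 15259, 0%). Without that adjustment, 59 of 81 members had a p under 0.05 and a positive difference, against 7.35% of all genes, and 0 had such a p with a negative one. In 40 members all 4 cHet mice lay above all controls, as in 4.12% of all genes, and 77 had a positive difference, against 55.2% of all genes. Among the 738 other coding genes under 1000 bases at 100 TPM or more, 91.3% had a positive difference, with a median of 0.07. In the 73 members of that length and level it was 98.6%, with a median of 0.12.

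Since no gene was called, the values below are differences that missed the threshold. Rplp0, the protein that anchors the stalk, was measured at 216, 210.3, 218 and 215 TPM in control mice, 231, 232, 239 and 239.9 TPM in cHet mice and 223, 234, 228 and 225 TPM in cKO mice. The controls were the 4 lowest mice, and the log2 difference between cHet and control was 0.13 ± 0.02 (SE; limma adjusted p = 0.119), the smallest p of the members. Rplp2, another stalk protein, was measured at 502, 505, 497 and 456 TPM in control mice, 574, 661, 554 and 524 TPM in cHet mice and 506, 520.4, 519.6 and 521 TPM in cKO mice. Control replicate 4 was the lowest and cHet replicate 2 the highest, with no overlap of cHet with control and a log2 difference of 0.24 ± 0.06 (SE; adjusted p = 0.193). Rplp1, the third stalk protein, had a difference of 0.15 ± 0.04 (SE).

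Rpl36a of the 60S subunit was measured at 349, 391.9, 388 and 405 TPM in control mice, 448, 480.5, 469 and 436 TPM in cHet mice and 401, 394, 383 and 436 TPM in cKO mice. The 4 cHet mice were the 4 highest of all 12, by a narrow margin over cKO replicate 4, and the log2 difference from control was 0.26 ± 0.05 (SE; limma adjusted p = 0.129). For Rps24 the difference was 0.15 ± 0.03 and for Rps9, near the entry of the mRNA channel, 0.13 ± 0.03 (SE each), with limma adjusted p values of 0.129 and 0.138. Rpl18 at 0.15 ± 0.03, Rpl41 at 0.20 ± 0.04 and Rpl26 at 0.16 ± 0.04 were also among the 8 smallest p values, none under an adjusted p of 0.119.

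Rps27 was measured at 1649.1, 1871, 1924 and 2077 TPM in control mice, 2277, 2500.2, 2183 and 1958 TPM in cHet mice and 1963, 1944, 1976 and 1912 TPM in cKO mice. Control replicate 4 exceeded cHet replicate 4, so the groups overlapped, and the log2 difference was 0.25 ± 0.07 (SE; limma adjusted p = 0.268). Rps29, the most abundant member, was measured at 2534, 2385, 2453 and 2534 TPM in control mice, 2939, 3225, 2464 and 2703 TPM in cHet mice and 2538, 2659, 2312 and 2666 TPM in cKO mice. Its cHet replicates 1 and 2 were the highest mice, cHet replicate 3 fell inside the control range, and the log2 difference was 0.19 ± 0.07 (SE). Rpl38, a 60S protein reported in mice to favour translation of Hox mRNAs, was measured at 1855, 1863, 1906 and 1831 TPM in control mice, 2244, 2492, 2042 and 2059 TPM in cHet mice and 2018, 2171, 1888 and 2144 TPM in cKO mice. Here no cHet mouse overlapped with control, with a log2 difference of 0.24 ± 0.06 (SE; adjusted p = 0.2).

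A single mouse weighed on the size of these differences. Without cHet replicate 2 the members' median against control was 0.09 in place of 0.12, and members with an unadjusted p under 0.05 numbered 41 in place of 59. The lowest differences were -0.11 for Rpl27, -0.02 for Rps12 and -0.01 for Rpl5, whose rows hold little of the matching RNA. In the authors' deposited table for cHet against control no member had a likelihood ratio q-value under 0.05, and of the members Rpl36a alone had a Wald q-value under it, 0.00381, beside 0.128% of the genes of that table with a positive effect.

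The comparison of cKO with cHet sets both Cre genotypes side by side. Members were slightly lower in cKO, with a median log2 difference of -0.03 against 0.00 over all genes, but without cHet replicate 2 the median was 0.00 with the sign turned. With equal totals it was -0.07, against -0.03 over all genes. No member passed an adjusted p under 0.05 in limma, while 367 of all genes (2.41%) were higher and 398 (2.61%) lower. Unadjusted, 10 members had a p under 0.05 and a negative difference, against 8.73% of all genes, and 1 a positive one, against 9.46%. All 4 cKO mice lay below all 4 cHet mice in 3 members, against 5.33% of all genes, and above them in 1, Rps19, against 6.14%, while 59 of 81 members had a negative difference, against 48% of all genes.

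Rpl36a and Rplp2 were among the 3 members that lay lower in cKO without overlap. Rpl36a had a log2 difference of -0.19 ± 0.05 (SE; limma adjusted p = 0.0661), and it alone was called, as lower, when cKO replicate 4 (adjusted p = 0.0354) or control replicate 1 (adjusted p = 0.0354) was left out. In the authors' deposited table its Wald q-value was 0.0165, under a threshold of 0.05 that 2.47% of the genes of that table passed as lower, and its likelihood ratio q-value 0.0587.

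Rplp2 differed by -0.16 ± 0.06 (SE) between cKO and cHet, Rps27 by -0.19 ± 0.07, Rps28 by -0.13 ± 0.06, Rpl30 by -0.10 ± 0.04, Rpsa, also known as a laminin receptor, by -0.09 ± 0.04, and Rps3a1 by -0.07 ± 0.03. None of these passed the adjusted threshold, with adjusted p values from 0.175 to 0.245. The highest differences were 0.17 for Rpl27, 0.11 for Rpl12 and 0.09 for Rps4l. The rows of Rpl27 and Rpl12 hold little of the matching RNA. With the copies added their differences were 0.06 ± 0.04 and -0.00013 ± 0.05 (SE). With equal totals 7 members were called lower in cKO, among them Rpl22, Rpl30, Rpl36a, Rps3a1, Rps9 and Rpsa, against 4.32% of all genes. With equal totals over genes that are not members it was 9, which added Rplp0 and Rps24, against 4.78% of all genes.

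**Figure D3:**
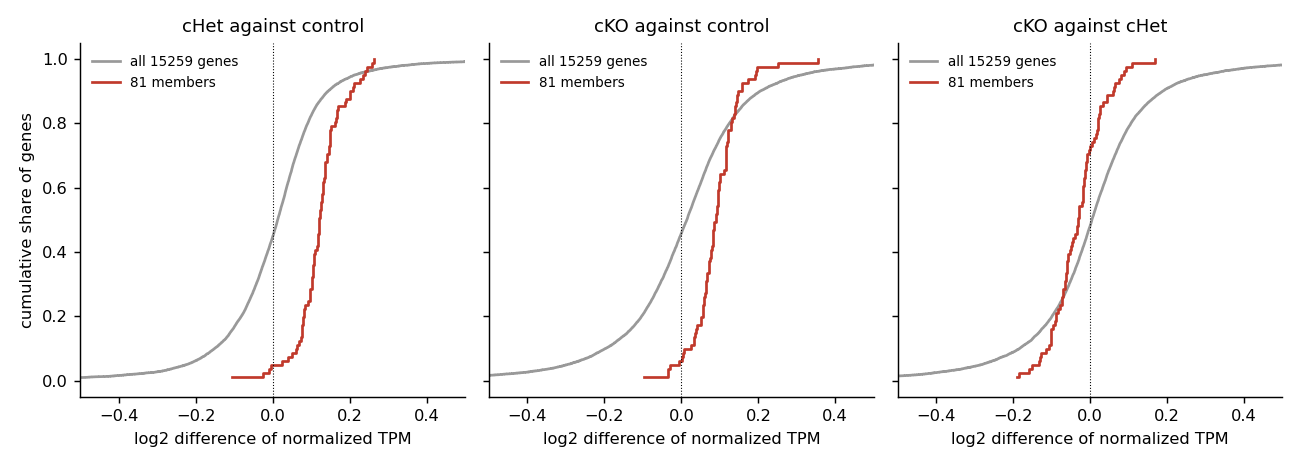
Cumulative share of genes (vertical axis) by log2 difference of normalized TPM (horizontal axis, drawn from -0.5 to 0.5) for the 81 members in red and all 15259 genes tested in grey, in 3 comparisons. Against control most of the red curve lies right of the grey one, with medians of 0.12 in cHet and 0.09 in cKO, though with libraries set to equal totals the cKO median was -0.00. For cKO against cHet the curves cross, and the red median is -0.03.

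Ribosomal protein genes have many near-identical copies in the genome, and an abundance estimate can split RNA between a gene and its copies. Among annotated genes, 300 pseudogenes or retrocopies shared at least 50% of their 31-base words with a member, for 69 of the 81 members, and 25 of them were listed at 1 TPM or more. Copies held 10% or more of the summed TPM of gene and copies in 12 members, and more than the named gene in 8. For Rpl12 the copies held 95.6%, for Rpl27 95.4%, for Rpl5 92.0% and for Rps12 91.6%. Values of these 4 genes taken alone are uncertain, as are those of Rpl27a, Rps23, Rpl31 and Rpl10, the other genes with more in the copies.

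Coding letters of 2 genes, each with a copy, are shown for how close they are. The first 60 coding bases of Rpl12 on chromosome 2 and of its copy Gm10275 on chromosome 10 were the same in GENCODE M21 on GRCm38, and so were all 495 bases compared. Rpl37 on chromosome 15 and its copy Rpl37rt on chromosome 5 differed at 1 of 291 bases, given in capitals within coding bases 219 to 278.
Rpl12: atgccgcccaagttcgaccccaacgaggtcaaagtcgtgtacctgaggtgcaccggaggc
Gm10275: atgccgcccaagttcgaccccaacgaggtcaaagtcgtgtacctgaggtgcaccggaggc
Rpl37: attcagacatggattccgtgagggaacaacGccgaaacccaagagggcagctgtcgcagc
Rpl37rt: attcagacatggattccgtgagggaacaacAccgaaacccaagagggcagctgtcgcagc

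Adding the copies to their gene, an alternative chosen after the data were seen, gave 14 members called in cKO against control in place of 13, all of them higher. Over all 15234 genes tested that way, 878 were called higher and 496 lower. Rpl12 left the calls, and Rpl27 and Rps12 entered them. Rps12 with its copies had 717 ± 15.8 TPM over the controls, 810.1 ± 37.3 TPM over cHet mice and 787 ± 28 TPM over cKO mice (SD, n = 4), a log2 difference between cKO and control of 0.13 ± 0.04 (SE; limma adjusted p = 0.0408). Rpl27 with its copies was at 821 ± 44.9, 865 ± 15.6 and 904 ± 21.7 TPM in the same order, a difference of 0.14 ± 0.04 (SE; limma adjusted p = 0.0344). The difference of Rpl36a between cKO and cHet, -0.19 for its own row, was -0.08 ± 0.05 (SE) with its copies, which hold 33.7% of the sum.

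The 300 copies summed to 5170.3 to 5411 TPM over the controls, 5396 to 5835 TPM over cHet mice and 5659.7 to 5768 TPM over cKO mice. The cKO mice lay above all controls, and a single cHet mouse fell into the control range. With the copies included, the sum of the members was 10.2% higher in cHet and 6.64% higher in cKO than in control, and their medians were 0.12 and 0.09 on the log2 scale.

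**Figure D4:**
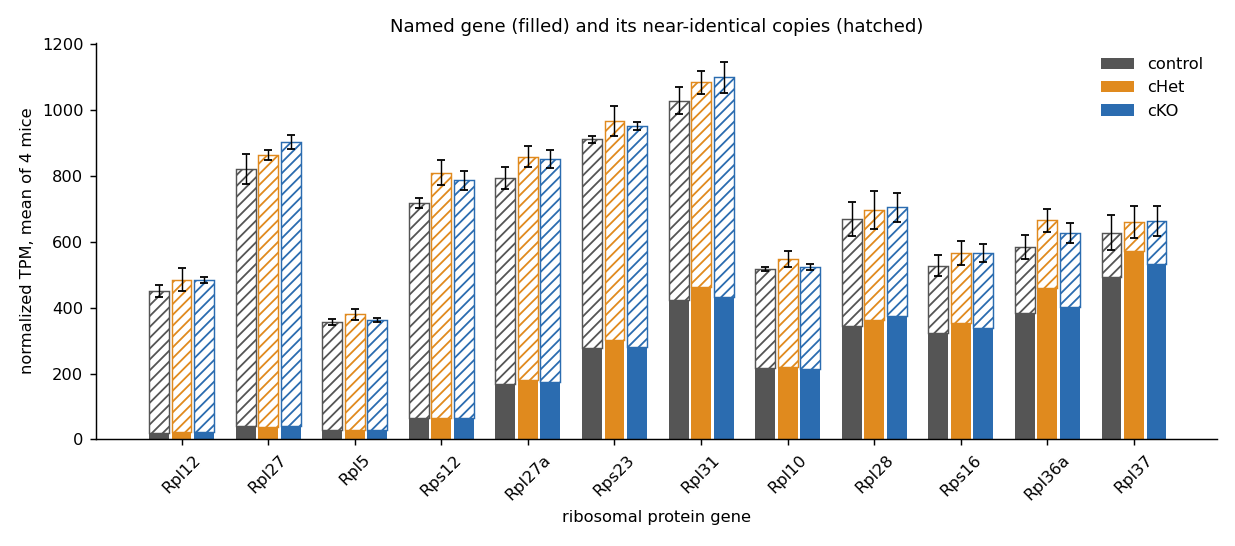
Mean normalized TPM of 4 mice per group for the 12 members whose copies hold at least 10% of the sum, with the named gene filled, its copies hatched and bars for the SD of the sum. Copies make up most of the column for Rpl12, Rpl27, Rpl5, Rps12, Rpl27a, Rps23, Rpl31 and Rpl10.

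Some ribosomal proteins have a paralog in the genome. Rpl22 was measured at 288, 293, 304 and 303 TPM in control mice, 313, 327, 317 and 320.2 TPM in cHet mice and 306, 306, 296 and 314 TPM in cKO mice. Its cHet mice did not overlap with control, with a log2 difference of 0.10 ± 0.03 (SE; limma adjusted p = 0.227). Its paralog Rpl22l1, which can take its place in the 60S subunit, had a mean of 362 TPM and differences of 0.11 ± 0.06 in cHet and 0.07 ± 0.06 in cKO (SE), with overlap in both. Rps27l, the p53-induced paralog of Rps27, had a mean of 124 TPM and differences of -0.00 ± 0.08 in cHet and 0.08 ± 0.08 in cKO (SE), also with overlap.

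Rpl7l1, a paralog of Rpl7, had a mean of 35.7 TPM and a difference of 0.14 ± 0.05 in cKO (SE; limma adjusted p = 0.0899), against 0.07 ± 0.03 for Rpl7 itself. The tissue-restricted paralogs were low, with Rpl3l at 0.978, Rpl39l at 0.0731 and Rpl10l at 0.0109 TPM, while Rpl3, Rpl39 and Rpl10 were at 528, 297 and 217 TPM. Differences of Rpl3 were 0.06 ± 0.03 in cKO and 0.04 ± 0.03 in cHet, and those of Rpl39 were 0.10 ± 0.06 in cKO and 0.12 ± 0.06 in cHet (SE each, none called). Rpl10 was at 212, 182, 220.3 and 258 TPM in control mice, 248, 223, 216 and 196 TPM in cHet mice and 226, 233, 233 and 163 TPM in cKO mice, with cKO replicate 4 the lowest mouse. With its copies Rpl10 was at 517 ± 5.60, 548 ± 25.7 and 524 ± 9.12 TPM over control, cHet and cKO mice (SD, n = 4).

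Length of the coding sequence, which the choice of members did not use, was set beside the size of the difference. The 9 members under 300 coding bases, among them Rpl38, Rps27, Rps21, Rps28, Rps29 and Rpl41, had a median log2 difference between cHet and control of 0.20, the 38 from 300 to 500 bases 0.13 and the 31 from 500 to 1000 bases 0.11. Over the 80 members with a coding length Spearman's rho between length and difference was -0.51, a description of genes that share their libraries. Between mean TPM and difference rho was 0.42 over the same members, and the parts of length and level were not separated. In cKO against control the 3 medians were 0.10, 0.08 and 0.09, and rho was -0.03 with length and 0.09 with mean TPM. The bins and the level of 100 TPM used next were chosen after values were seen.

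The same bins were read in genes other than ribosomal protein genes. Among other coding genes at 100 TPM or more, the median difference between cHet and control was 0.11 in 84 genes under 300 bases, 0.08 in 219 genes from 300 to 500, 0.06 in 435 genes from 500 to 1000, 0.04 in 453 genes from 1000 to 2000 and 0.01 in 232 longer genes. In cKO against control these medians were 0.13, 0.11, 0.08, 0.05 and 0.01. Of the 738 other coding genes under 1000 bases at that level, 194 (26.3%) were called higher in cKO, beside 12 of the 73 members of that length and level (16.4%). Median differences were 0.09 in those 738 genes and 0.09 in those 73 members for cKO, and 0.07 and 0.12 for cHet. RNA quality was not measured, and its part in this relation was not tested.

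**Figure D5:**
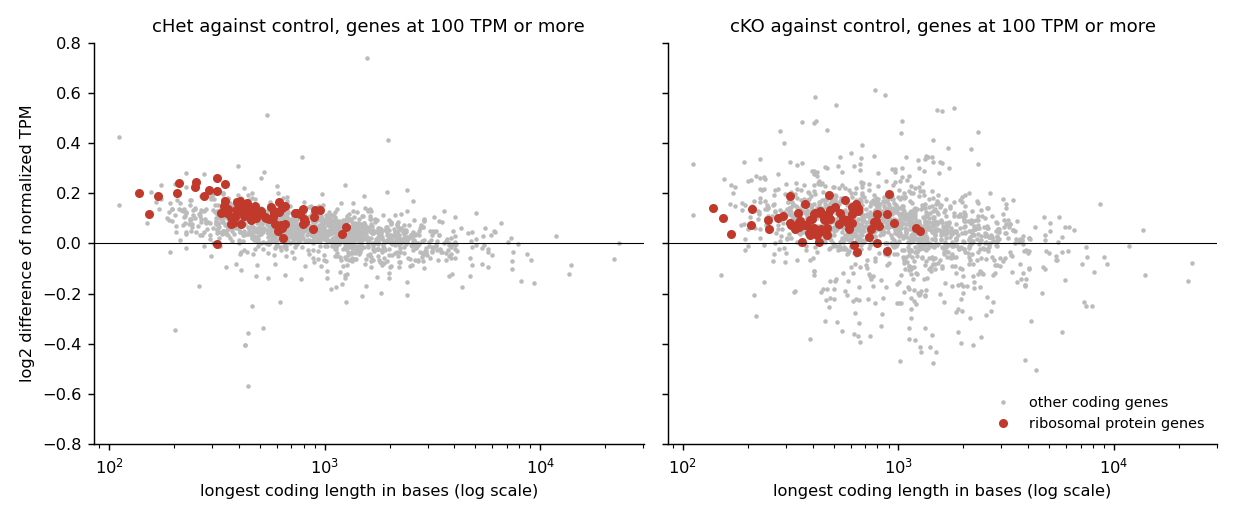
Log2 difference of normalized TPM (vertical axis) by longest annotated coding length in bases (horizontal axis, log scale) for genes at 100 TPM or more, with members in red and other coding genes in grey, for cHet (left) and cKO (right) against control. Under 300 bases the medians in cHet were 0.20 for members and 0.11 for others. Points beyond 0.8 in either direction are not drawn.

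Calls in cKO were also counted by base composition of the coding sequence. None of the 21 members under 50% GC was called, against 6 of 37 from 50 to 55% and 7 of 22 at 55% or more, with medians of 0.07, 0.09 and 0.12 on the log2 scale. Of the other coding genes tested, 3.27%, 5.70% and 8.09% of those in the same 3 ranges were called higher. Spearman's rho between GC and the difference was 0.35 over 80 members and 0.15 over 14212 other coding genes, again as a description. In cHet the 3 medians were 0.12, 0.12 and 0.13.

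The sums were split by sex. The 2 control females held 49185 and 49832 TPM and the 2 control males 47588 and 48121 TPM, while the 2 males of cHet held 53809 and 58391 TPM and its females 51122 and 52146 TPM. In cKO the males held 53036 and 53140.1 TPM and the females 50448 and 50828 TPM. Each pair of sexes was apart within its group, with females higher in control and males higher with Cre. The members' median difference from control was 0.13 in males and 0.05 in females for cKO, and 0.17 and 0.06 for cHet. Each of these medians rests on 2 mice a group, and the cHet male at 58391 TPM was replicate 2, the highest mouse. In a limma fit with sex by genotype terms no member had a different effect by sex at an adjusted p under 0.05, with a smallest adjusted p of 0.749. Unadjusted, 7 members had a p under 0.05 for cKO, against 3.88% of all genes, and 19 for cHet, against 5.56% of all genes.

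Further ribosomal protein genes fall outside the naming rule. Fau encodes a 40S protein fused to a ubiquitin-like domain, Rack1 a 40S scaffold, and Rpl36al is a close relative of Rpl36a. Of the 4 such genes tested 1 was called higher in cKO against control, and 0 with equal totals. The log2 differences in cKO were 0.13 ± 0.04 for Fau, 0.10 ± 0.04 for Rack1 and 0.09 ± 0.03 for Rpl36al (SE), none of these called, with limma adjusted p values of 0.0732, 0.194 and 0.0651. In cHet, against the same control mice, they were 0.13 ± 0.04, 0.09 ± 0.04 and 0.13 ± 0.03 (SE), with limma adjusted p values of 0.295, 0.425 and 0.177. Between cKO and cHet Rpl36al differed by -0.03 ± 0.03 (SE).

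Among 17 translation factors and other TOP mRNAs, 3 rose in cKO against control, though 0 with equal totals, and none fell, though 2 did with equal totals, with a median of 0.05. The 3 were Eef1a2, the elongation factor of neurons and muscle (0.18 ± 0.04, SE; limma adjusted p = 0.0312), Eif3f, a subunit of initiation factor 3 (0.17 ± 0.04; adjusted p = 0.033) and Eef1d, an exchange factor (0.19 ± 0.05; adjusted p = 0.0399). None was called in cHet against control, where the median was 0.05 and the smallest p values were those of Tpt1 (0.12 ± 0.03, SE) and Eif3k (0.12 ± 0.04). Tpt1, a strongly TOP-regulated mRNA, had 892 ± 22.8 TPM over the controls, 972 ± 27.7 TPM over cHet mice and 886 ± 6.63 TPM over cKO mice (SD, n = 4), and it was the single gene of the list to fall in cKO against cHet (-0.13 ± 0.03, SE; limma adjusted p = 0.0133). With equal totals Tpt1 was lower in cKO than in either other group (-0.17 and -0.10; limma adjusted p = 0.00106 against cHet and 0.0164 against control).

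Genes that assemble ribosomes or transcribe ribosomal RNA were read next. Of 36 assembly factors none was called in any comparison, though with equal totals 2 were lower in cKO than in control, and their medians were 0.01 for cKO and -0.02 for cHet against control. The smallest p values in cKO were those of Rrs1 (0.14 ± 0.04, SE) and Bysl (0.20 ± 0.07), and in cHet those of Las1l (-0.13 ± 0.05) and Sbds, the Shwachman-Diamond gene (0.11 ± 0.04). Between cKO and cHet Nol6 (0.13 ± 0.04) and Rrs1 (0.15 ± 0.04) had the smallest. Of 11 genes of RNA polymerase I and its factors 1 fell in cKO, Polr1a, the catalytic subunit, from 14.2 ± 0.683 to 12.1 ± 0.882 TPM (SD, n = 4; limma adjusted p = 0.0389), with a list median of -0.01, and it was also called with equal totals. In cHet none was called, and Taf1b (-0.19 ± 0.07, SE) and Polr1a (-0.14 ± 0.06) had the smallest p values.

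Of 17 genes of mTORC1 and TOP control, 1 rose in cKO against control, though not with equal totals, Rheb, the GTPase that activates mTORC1, from 89.4 ± 1.66 to 98.5 ± 0.727 TPM (SD, n = 4; limma adjusted p = 0.00411). The list median was -0.04 in cKO and -0.04 in cHet, and in cHet Rheb (0.11 ± 0.02, SE; adjusted p = 0.172) and Mtor (-0.12 ± 0.05; adjusted p = 0.427) had the smallest p values. Of 12 tested p53 targets, which respond to free ribosomal proteins, Phlda3 (0.17 ± 0.04, SE; adjusted p = 0.0177) and Aen (0.24 ± 0.06; adjusted p = 0.0226) rose in cKO, though not with equal totals. None was called in cHet, where Ccng1 (0.19 ± 0.05) and Phlda3 (0.13 ± 0.04) had the smallest p values, and the list medians were 0.05 in cKO and 0.08 in cHet.

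Proteasome core subunits, another abundant complex with short mRNAs, were read in the same way. Of 14 genes 1 rose in cKO against control, though not with equal totals, Psmb5, from 179 ± 4.43 to 198 ± 10.3 TPM (SD, n = 4; limma adjusted p = 0.0425). The median difference of the 14 was 0.06 in cKO and 0.07 in cHet, and none was called in cHet, where Psmb5 (0.12 ± 0.04, SE) and Psma4 (0.10 ± 0.03) had the smallest p values. The list summed to 2218 to 2296 TPM over the controls, 2288 to 2522 TPM over cHet mice and 2294 to 2429 TPM over cKO mice, with a cKO mouse just inside the control range.

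Scaling bears on each list given here. With equal totals none of the genes of the translation, mTORC1, p53 and proteasome lists was called higher in cKO against control, and 2 translation genes (Eef1a1 and Tpt1) and 3 mTORC1 genes (Tsc1, Rps6kb1 and Deptor, chosen after their values were seen) were called lower. The medians of those lists were -0.04, -0.13, -0.04 and -0.03, while the median of all genes was -0.07.

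Cell type markers were read in the same libraries. Of 10 microglial markers 8 rose against control and none fell, and they summed to 320.4 to 328 TPM over the controls, 329 to 353 TPM over cHet mice and 420.1 to 456 TPM over cKO mice. Of 10 oligodendrocyte markers 7 fell and none rose, with sums of 20806 to 21736 TPM in control, 20838 to 24627 in cHet and 17292 to 19707 in cKO. Of 10 astrocyte markers 3 rose and 2 fell, with sums of 3471 to 3661, 3547 to 3779 and 4008 to 4489.5 TPM in the same order, and of 10 neuron markers 3 rose, with 3728 to 3929.6, 3834 to 4112 and 3956 to 4195 TPM. None of these was called in cHet against control. With equal totals the cKO calls were 5 higher for microglia, 10 lower for oligodendrocytes, 2 higher and 2 lower for astrocytes and 1 higher for neurons, and the neuron median turned from 0.08 to -0.01. Neuron, glial and oligodendrocyte markers were measured in every library, as the label spinal cord asks.

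Markers of blood, vessels and meninges varied within groups. Of 5 blood markers none was called, and their sum ranged over 1094 to 2726 TPM in control, 816 to 1889.8 TPM in cHet and 1069.7 to 5123 TPM in cKO. Endothelial sums were 202 to 210.3, 209.7 to 228 and 209 to 243 TPM with 0 of 8 called, and 1 of 7 meningeal fibroblast markers rose in cKO, with sums of 43.6 to 49.2, 42 to 53.2 and 44.9 to 52.8 TPM. Leukocyte markers summed to 3.47 to 12.2, 3.03 to 8.87 and 8.16 to 12.9 TPM, with 3 of 8 tested, 0 called and Ly6g listed at 0 in 9 of 12 mice. The part of cell composition in the differences of ribosomal protein genes was not tested.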

How the data were processed

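Spinal cord RNA of 12 mice was sequenced from TruSeq libraries, per the labels' protocols, and quantified with kallisto 0.44.0 and sleuth 0.30.0 on GRCm38, per the submitters' processing notes. No annotation release is given in the sources used here, so which copies were quantified was read from the rows. The signal deposited is the authors' normalized TPM per gene, with no depth kept. The deposited tables of the authors' comparisons hold p-values and q-values and an effect estimate of which only the sign was used, as its scale (other than p or q) is not stated.

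The 15259 genes with a mean over all mice of 1 TPM or more were fitted with limma 3.58.1 in R 4.3.3 on log2(TPM + 0.5), all 12 mice, eBayes with trend, two-sided, Benjamini-Hochberg over all genes. A fold change on that scale understates low genes. The step was tested on simulated data with the means and spreads of the real genes and known log2 changes in cKO against control. Of 50 genes each at 100 TPM or more, changes of 0.1, 0.15, 0.25 and 0.5 were called in 10%, 30%, 66% and 92%. No other gene of the 15259 was changed there, so fewer genes were called than the 1374 of the real fit. The adjusted threshold was then stricter, and these shares need not hold for the real data. Each mouse is 1 sample by its label. Members and lists were chosen with earlier results of these data known. Members are named where they are among the 8 smallest p, the 3 largest or 3 smallest differences of a comparison, the 5 most abundant, next to the 10 TPM limit or in a paralog pair, and list genes as up to 4 called or else the 2 of smallest p; Rpl36 and Rps19 were named after their values were seen, as members called. Some genes are not reported here. Coding lengths and copies (31-base words) come from GENCODE M21, in which 35471 of 36121 identifiers were found.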

Additional observations from a re-analysis of the deposited data

Results flagged for a closer look

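In 8 of the sets of 4 mice examined (named members, sums and shares, 132 sets in all), a single mouse stood apart from the other 3 of its group by more than Dixon's 95% critical share of the range. Chance flags about 1 in 20 groups. Rpl10 was 163 TPM in cKO replicate 4 against 226 to 233 TPM in the other cKO mice, and Rpl12 was 25.8 TPM in the same mouse against 21.5 to 22.0 TPM. Copies held 58.9% of the sum of gene and copies for Rpl10 and 95.6% for Rpl12. Those sums were 524 ± 9.12 and 484 ± 9.54 TPM over cKO mice (SD, n = 4). In control mice, Rpl15 was 355 TPM in replicate 3 against 328 to 332 TPM. Rpl7 was 342 TPM in cHet replicate 2 against 323 to 326 TPM, and Rps24 was 953 TPM in cHet replicate 4 against 1019.98 to 1031 TPM. Among cKO mice, Rpl7l1 was 34.7 TPM in replicate 2 against 38.3 to 38.6 TPM, Rps19 was 545 TPM in replicate 2 against 515 to 518 TPM, and Rplp2 was 506 TPM in replicate 1 against 519.6 to 521 TPM.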

How the results depend on the processing

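Scaling between libraries decided the direction in cKO against control: the members' median of 0.09 became -0.0043 with equal totals, -0.0044 with equal totals over genes that are not members and 0.036 with equal totals that leave out mitochondrially encoded genes, while all genes shifted by -0.09, -0.09 and -0.05. The members' summed TPM turned from 6.53% to -0.142%. Member calls numbered 13, and 2, 1 and 3 under those scalings, 8 with the median of ratios, 5 with no filter on low values and 5 without a trend. Leaving out a mouse gave 4 to 20 member calls and medians of 0.08 to 0.10. Over all genes the calls numbered 1374, and in the same order 2018, 2009, 1295, 1279, 1049 and 1162. With a mouse left out, 814 to 1512 of all genes were called. In cHet against control the median of 0.12 was 0.069 with equal totals, 0.067 when those leave out mitochondrially encoded genes and 0.09 to 0.14 with a mouse left out. Member calls there numbered 0 throughout. Over all genes, 2 were called lower with no filter on low values, 1 higher without control replicate 2 and 0 in the other settings (1724 at an unadjusted p under 0.05). In cKO against cHet 7 members were called with equal totals, 9 with equal totals over genes that are not members and 0 to 1 with a mouse left out. Over all genes the calls there numbered 913, 974 and 532 to 715. The members' median of -0.03 was -0.072 with equal totals, where all genes had -0.035. With equal totals over genes that are not members it was -0.077, where all genes had -0.040. It ranged from -0.056 to 0.0020 with a mouse left out, with its sign turned without cHet replicate 2. The cause was not tested. Pseudocounts of 0.1 and 1, sex as a covariate, fits of only the groups compared, a mean of at least 5 TPM, summed rows of a symbol and added copies (chosen after the data were seen) kept each count within 1.5 times and each median within the spread between mice. No paired analysis was possible because the labels give no replicate numbers. With 4 mice a group and no depth in TPM, differences near 0.1 on the log2 scale could be missed. In simulated data for cKO against control, 10% of changes of 0.1 were called. Fewer genes were changed there than were called in the real data, so the adjusted threshold was stricter and that share need not hold.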
